A study of Mus musculus with 8 samples.

Results

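Tumour necrosis factor (TNF), its receptors and the proteins that release and restrain it were followed through 8 genes, Tnf, Tnfrsf1a, Tnfrsf1b, Adam17, Rhbdf2, Tnfaip3, Tnfaip2 and Ripk1. The genes were taken by symbol from the 14971 named genes of a read count table, and all 8 were listed and passed the low-count filter, which left 14184 genes. RNA was sequenced from GPR35-positive and GPR35-negative macrophages, sorted as MHCII+CD64+ cells from the lamina propria of the colon of male mice. The 4 animals gave both populations, so there were 4 GPR35-positive and 4 GPR35-negative libraries, and animals carry their replicate number here. The sources used here give no strain, genotype, age or treatment, and the 2 groups share the sex, the tissue, the digestion and the MHCII+CD64+ gate. GPR35 is a G protein-coupled receptor, and TNF has been proposed as a cytokine downstream of it; the comparison asked how the cells that carry the receptor differ from those that do not.

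TNF is made as a membrane-bound trimer on macrophages and is cut free by the protease ADAM17, which in macrophages needs the pseudoprotease iRhom2 (Rhbdf2) to mature and reach the surface. It signals through TNFR1 (Tnfrsf1a), which most cells carry and whose death domain recruits the kinase RIPK1, and through TNFR2 (Tnfrsf1b), which lacks a death domain and is found mainly on immune and endothelial cells. Signalling through NF-kB induces A20 (Tnfaip3), a ubiquitin-editing enzyme that shuts the pathway down again. In the gut, TNF from macrophages is a known driver of inflammation and also acts on the epithelium.

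The promoters of Tnf, the ligand, and of Tnfaip3, the feedback gene, are shown. They were the only genes whose searched windows held a match to the motifs below. Sequences are from RefSeq (GRCm38.p6), which held promoter windows for 7 of the 8 genes. The Tnf stretch is the 250 bases before the transcription start at chr17:35202008-35202257, minus strand. The Tnfaip3 stretch is the last 30 bases before a transcription start at chr10:19015411-19015440, minus strand. In the GENCODE annotation Tnfaip3 reaches to chr10:19015657, so these 30 bases lie inside the annotated gene there. Capitals mark matches to the PU.1 core AGGAAGT, to a kB motif, which is the binding pattern of NF-kB, or to the promoter element known as the TATA box, searched as TATAAA.
Tnf: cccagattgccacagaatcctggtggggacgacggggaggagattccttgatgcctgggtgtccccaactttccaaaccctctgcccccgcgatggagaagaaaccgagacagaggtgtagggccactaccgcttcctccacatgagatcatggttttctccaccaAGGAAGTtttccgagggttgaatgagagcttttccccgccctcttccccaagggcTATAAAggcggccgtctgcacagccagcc
Tnfaip3: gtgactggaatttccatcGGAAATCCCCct

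Both strands of the 250 bases before each start were searched, and no 2 matches overlapped. In the Tnf window the PU.1 core began 84 bases and the TATA box 29 bases before the start. PU.1, encoded by Spi1, is a transcription factor of the myeloid lineage. In the printed Tnfaip3 window a kB match lay on the other strand, beginning 12 bases before the start, and a second match, outside the printed bases, began 125 bases before the start. A TATA box match, also outside the printed bases, began 225 bases before that start. The window of another Tnfaip3 start, not printed, held a kB match beginning 90 bases before it. Of 32851 mouse promoter windows of this length, 7.69% held the PU.1 core, 12.4% the TATA box and 14.9% the kB motif. Among the 14148 windows of tested genes the shares were 7.69%, 7.03% and 17.9%. The matches describe letters only.

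Total counts ranged from 33769639 to 48599893 in the GPR35-positive and from 15996622 to 30066596 in the GPR35-negative libraries. Gpr35 itself stood at 91.9, 56.2, 69.0 and 76.1 CPM (read counts scaled to a common effective library size by TMM) in GPR35-positive libraries 1 to 4, against 3.21, 1.13, 2.84 and 4.69 CPM in the GPR35-negative libraries, as labelled. The gate was checked with 20 macrophage genes, all 20 of which had counts in every library. They took 4.40% to 4.84% of counts in GPR35-positive libraries, against 2.51%, 1.18%, 0.574% and 0.761% in GPR35-negative libraries 1 to 4. Of 14 B and plasma cell genes, also with counts in every library, the sum was 0.124% to 0.279% of counts in GPR35-positive and 8.38% to 15.7% in GPR35-negative libraries. The GPR35-negative libraries thus held a smaller share of macrophage RNA and a large share of plasma cell RNA, although both groups carry the same gate label. In bulk samples, fewer cells of a type and less RNA per cell cannot be told apart.

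All 8 genes were higher in GPR35-positive cells, by 2.07-fold (Tnfrsf1a) to 7.65-fold (Tnfaip2), past an edgeR adjusted p of 0.05 and in 4 of 4 animals. Over all tested genes, 38.0% passed this threshold, 18.5% as higher and 19.5% as lower. The lowest GPR35-positive library stood above the highest GPR35-negative library for each of the 8, which was so for 21.5% of all tested genes; 20.6% were separated with GPR35-positive lower, making 42.1% in either direction. The median log2 fold change of the 8 was 1.73, against -0.05 over all tested genes. The 20 macrophage genes, 20 of 20 of them higher, had a median of 2.08. With every library scaled to those macrophage genes instead of by TMM, 0 of the 8 passed as higher and 3 passed as lower, where 0.430% of all tested genes passed as higher and 87.5% as lower. That scaling moved the median log2 fold change of all tested genes to -2.74, and each of the 8 lay above that median, by 1.22 (Tnfrsf1a) to 3.05 (Tnfaip2). Scaling moves all genes of a library together, so this distance is nearly the TMM one, 1.10 (Tnfrsf1a) to 2.98 (Tnfaip2). It is not a separate result.

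**Figure D1:**
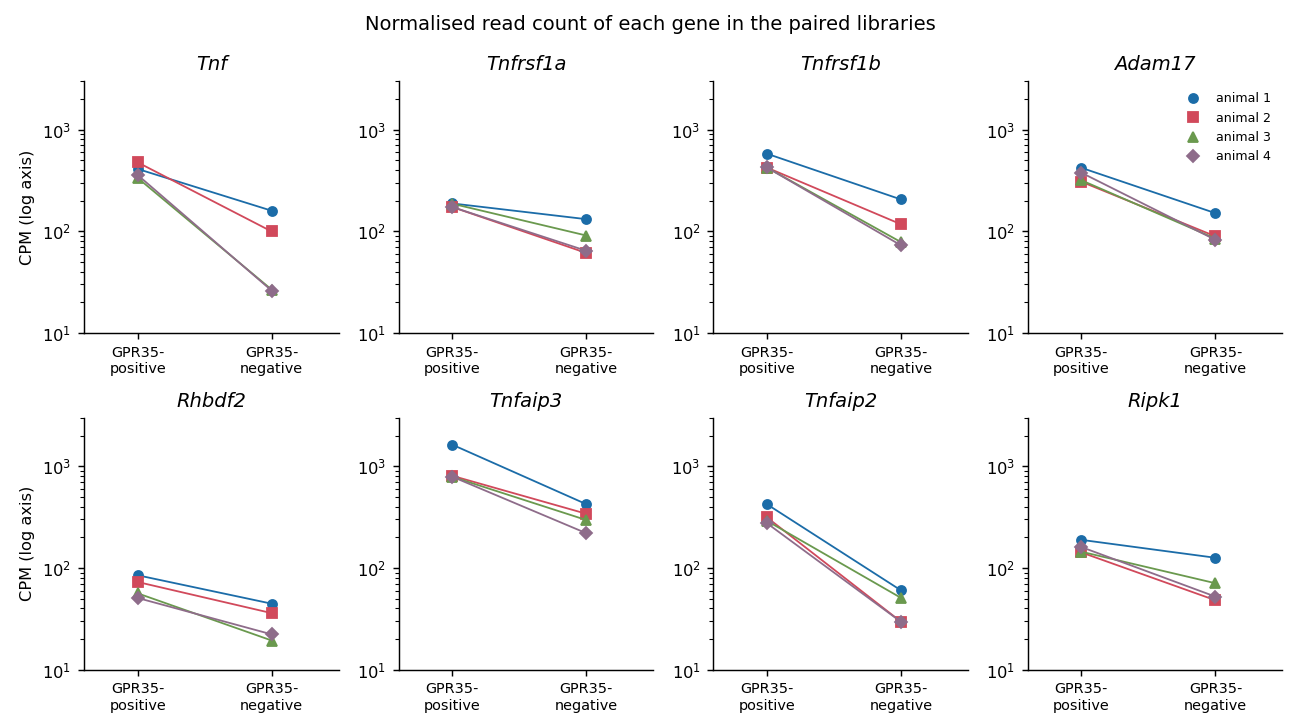
Normalised read count (CPM, log axis) of each of the 8 genes in the GPR35-positive (left) and GPR35-negative (right) libraries of 4 animals, with a line joining the libraries of an animal. Every line falls to the right, and for Tnf the GPR35-negative libraries of animals 3 and 4 lie near 26 CPM.

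The ligand, Tnf (Entrez gene 21926, chromosome 17, 35199367 to 35202007, minus strand, protein coding), had 410.0, 476, 334 and 357 CPM in GPR35-positive libraries 1 to 4. In GPR35-negative libraries 1 to 4 it had 159, 99.6, 26.7 and 26.1 CPM. The GPR35-positive libraries lay close together, while the GPR35-negative ones spread 6.11-fold from lowest to highest, and the groups did not overlap. The mean was 394 ± 62.9 CPM in GPR35-positive and 77.9 ± 64.3 CPM in GPR35-negative libraries (SD, n = 4), for a log2 fold change of 2.34 ± 0.57 (SE; edgeR adjusted p = 0.0125). The difference within animals was 1.36, 2.26, 3.64 and 3.77 log2 units in animals 1 to 4. The order of Tnf over the GPR35-negative libraries was nearly that of the macrophage share given above, with libraries 1 and 2 highest in each. Tnf was not alone in this, as libraries 1 and 2 were also highest for Tnfrsf1b, Adam17, Rhbdf2 and Tnfaip3. Libraries 1 and 3 were highest for Tnfrsf1a, Tnfaip2 and Ripk1. Scaled to the macrophage genes, Tnf stood at a log2 fold change of 0.20 ± 0.44 (SE; edgeR adjusted p = 0.66). In a fit without a block for the animal, the call also ended without replicate 2 (edgeR adjusted p = 0.0549; log2 fold change 2.40). With all animals and the replicate block, Tnf was at 2.77 ± 0.46 (SE; edgeR adjusted p = 5.19e-03).

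The receptors were both higher in GPR35-positive cells, and Tnfrsf1b by more than Tnfrsf1a. Tnfrsf1b, which encodes TNFR2 (chromosome 4, 145212368 to 145246870, minus strand), had 579, 423, 423 and 424 CPM in GPR35-positive libraries 1 to 4, against 206, 117, 78.4 and 72.9 CPM in GPR35-negative libraries. GPR35-positive library 1 stood above its 3 near-identical neighbours, and the groups did not overlap. This gave a log2 fold change of 1.96 ± 0.33 (SE; edgeR adjusted p = 2.43e-03). Tnfrsf1a, which encodes TNFR1 (chromosome 6, 125349723 to 125362483, plus strand), had 188, 173, 187 and 173 CPM in GPR35-positive libraries 1 to 4. In GPR35-negative libraries it had 132, 61.2, 90.9 and 64.3 CPM. Its GPR35-positive libraries differed by 1.08-fold at most, the narrowest spread of the 8 genes, and the groups did not overlap. This gave a log2 fold change of 1.05 ± 0.24 (SE; edgeR adjusted p = 8.57e-03). Without a block for the animal, Tnfrsf1a missed the threshold once replicate 4 was left out (edgeR adjusted p = 0.0502). With all animals and the replicate block, Tnfrsf1a was at 1.12 ± 0.19 (SE; edgeR adjusted p = 5.73e-03). Scaled to the macrophage genes, Tnfrsf1b was at -0.42 ± 0.43 and Tnfrsf1a at -1.52 ± 0.47 (SE; edgeR adjusted p = 0.351 and 4.61e-03).

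Ratios of 2 genes within a library do not depend on how libraries are scaled, and 6 were compared, with p-values adjusted over the 6. They still depend on which cells gave the RNA. The marker shares above differed between the groups, and the part of other cells in these ratios was not tested. The log2 ratio of Tnfrsf1b to Tnfrsf1a counts was 1.62, 1.29, 1.18 and 1.29 in GPR35-positive libraries 1 to 4, against 0.65, 0.94, -0.21 and 0.18 in GPR35-negative libraries. It was higher in the GPR35-positive library of 4 of 4 animals, by 0.96 on average, and the groups did not overlap. A 2-sided exact permutation test gave p = 0.0286, the lowest value possible with 70 arrangements, and 0.171 once adjusted, above the threshold. That test does not use the pairing by animal. Exact sign flips within animals gave p = 0.125 for this ratio, the lowest possible with 16 flips, and 0.3 once adjusted. No other ratio passed under either test, and the highest adjusted p was 0.286 by exact permutation and 0.375 by sign flips. Tnf over Tnfrsf1b, ligand over receptor, averaged -0.23 ± 0.29 in GPR35-positive and -0.91 ± 0.70 in GPR35-negative libraries (SD, n = 4; exact permutation p = 0.20, adjusted 0.274). In GPR35-negative libraries 1 and 2 it lay at -0.37 and -0.24, within the range of the GPR35-positive libraries, and in libraries 3 and 4 at -1.55 and -1.48. The ratios use counts not divided by gene length, so their sign does not order the 2 genes per length. Per kb of gene length, mean Tnf was above mean Tnfrsf1b in GPR35-positive libraries (239 against 94.1 CPM). The same held in GPR35-negative libraries (47.1 against 24.1 CPM), where the 2 genes overlapped.

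**Figure D2:**
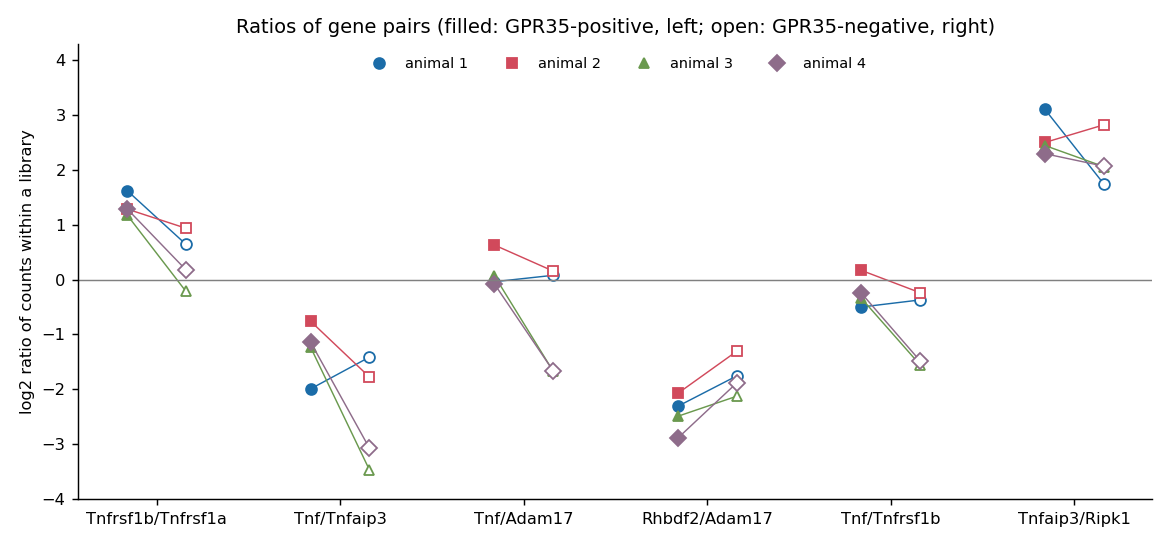
Log2 ratio of the counts of 2 genes within a library for 6 pairs, with filled symbols for GPR35-positive (left) and open symbols for GPR35-negative (right) libraries, joined by animal. Tnfrsf1b over Tnfrsf1a is higher and Rhbdf2 over Adam17 lower in the GPR35-positive library of all 4 animals, and none of the 6 passed after adjustment.

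The shedding pair, Adam17 and Rhbdf2, was higher in GPR35-positive cells, the protease by 3.49-fold and its partner by 2.17-fold. Adam17 (chromosome 12, 21323509 to 21373632, minus strand) had 421, 307, 317 and 376 CPM in GPR35-positive libraries 1 to 4, against 151, 89.2, 84.7 and 82.4 CPM in GPR35-negative libraries. The groups did not overlap, with GPR35-negative library 1 well above the other GPR35-negative ones. This gave a log2 fold change of 1.80 ± 0.23 (SE; edgeR adjusted p = 6.25e-04). Rhbdf2 (chromosome 11, 116598148 to 116626960, minus strand) had 84.8, 72.8, 56.4 and 50.7 CPM in GPR35-positive and 44.6, 36.0, 19.4 and 22.3 CPM in GPR35-negative libraries. Libraries 1 and 2 were the higher ones in each group for Rhbdf2, and the lowest GPR35-positive library lay only a little above the highest GPR35-negative one. This gave a log2 fold change of 1.12 ± 0.29 (SE, edgeR adjusted p = 0.0162). In fits without a block for the animal, the call ended without replicate 2, 3 or 4 (edgeR adjusted p = 0.0564, 0.0532 and 0.0527). With all animals and the replicate block, Rhbdf2 was at 1.17 ± 0.15 (SE, edgeR adjusted p = 2.15e-03). The log2 ratio of Rhbdf2 to Adam17 averaged -2.44 ± 0.34 in GPR35-positive and -1.77 ± 0.34 in GPR35-negative libraries (SD, n = 4). It was lower in the GPR35-positive library of 4 of 4 animals and did not pass (exact permutation p = 0.0571, adjusted 0.171). Exact sign flips within animals gave p = 0.125 for it (adjusted 0.3). Scaled to the macrophage genes, Adam17 was at -0.72 ± 0.44 and Rhbdf2 at -1.34 ± 0.47 (SE; edgeR adjusted p = 0.126 and 0.0104). Adam17 overlaps the gene Iah1 by 99 bases, and the library method does not mark strand; Iah1 was at 33.9 ± 4.10 CPM in GPR35-positive and 28.7 ± 6.80 CPM in GPR35-negative libraries (SD, n = 4).

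Other parts of the shedding machinery, a list of 7 genes, were 3 higher, 1 lower and 3 not past the threshold in GPR35-positive cells (median log2 fold change -0.12, against -0.05 over all tested genes). The shares over all tested genes were 18.5% higher and 19.5% lower. Adam8, a protease of leukocytes, was higher at 81.0 ± 22.1 CPM in GPR35-positive against 11.2 ± 4.34 CPM in GPR35-negative libraries (SD, n = 4; log2 fold change 2.85 ± 0.34, edgeR adjusted p = 4.43e-04). Adam10, the closest relative of ADAM17, was higher (1.04 ± 0.26, edgeR adjusted p = 0.0143), as was Frmd8, which stabilises iRhoms at the cell surface (0.64 ± 0.20, edgeR adjusted p = 0.0349). Timp3, the tissue inhibitor that blocks ADAM17, was lower at 21.5 ± 15.1 CPM in GPR35-positive against 178 ± 125 CPM in GPR35-negative libraries (-3.05 ± 0.70, edgeR adjusted p = 9.29e-03). Stromal cells are a known source of Timp3, and 9 of 13 stromal and endothelial genes were lower as well; their sum was 0.0202% to 0.109% of counts in GPR35-positive and 0.337% to 0.865% in GPR35-negative libraries. The part of those cells in the Timp3 value was not tested.

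The induced and downstream genes spanned a wide range, from Tnfaip2 with the largest difference of the 8 to Ripk1 with one of the smaller. Tnfaip2 (chromosome 12, 111442450 to 111455018, plus strand), which encodes the TNF-induced protein M-Sec known from tunnelling nanotubes, had 424, 315, 291 and 276 CPM in GPR35-positive libraries 1 to 4. In GPR35-negative libraries it had 60.4, 29.7, 50.9 and 29.6 CPM. The groups lay far apart, for a log2 fold change of 2.94 ± 0.28 (SE; edgeR adjusted p = 1.88e-04), the largest of the 8. Tnfaip3 (chromosome 10, 19000910 to 19015410, minus strand), the A20 gene, had 1630.3, 806, 788 and 790 CPM in GPR35-positive libraries 1 to 4, against 424, 341, 296 and 220 CPM in GPR35-negative libraries. GPR35-positive library 1 stood far above its neighbours and the groups did not overlap. This gave a log2 fold change of 1.65 ± 0.30 (SE; edgeR adjusted p = 3.49e-03). Ripk1 (chromosome 13, 34002225 to 34035170, plus strand), the kinase bound to TNFR1, had 189, 142, 145 and 161 CPM in GPR35-positive libraries, against 126, 48.2, 70.8 and 52.3 CPM in GPR35-negative libraries. The groups did not overlap, but GPR35-negative library 1 came near the lowest GPR35-positive one. This gave a log2 fold change of 1.10 ± 0.30 (SE; edgeR adjusted p = 0.0187), and the call ended without replicate 2, 3 or 4, without GPR35-positive replicate 1 and with library size as the only scaling (edgeR adjusted p = 0.0531). Those fits had no block for the animal. With all animals and the replicate block, Ripk1 was at 1.20 ± 0.20 (SE; edgeR adjusted p = 5.50e-03). The Ripk1 locus overlaps Serpinb6a by 570 bases, and that gene was lower in GPR35-positive libraries (34.6 ± 10.5 CPM in GPR35-positive against 82.4 ± 17.4 CPM in GPR35-negative libraries; SD, n = 4). Scaled to the macrophage genes, Tnfaip2 was at 0.31 ± 0.48, Tnfaip3 at -0.92 ± 0.47 and Ripk1 at -1.41 ± 0.46 (SE; edgeR adjusted p = 0.531, 0.0719 and 6.99e-03).

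**Figure D3:**
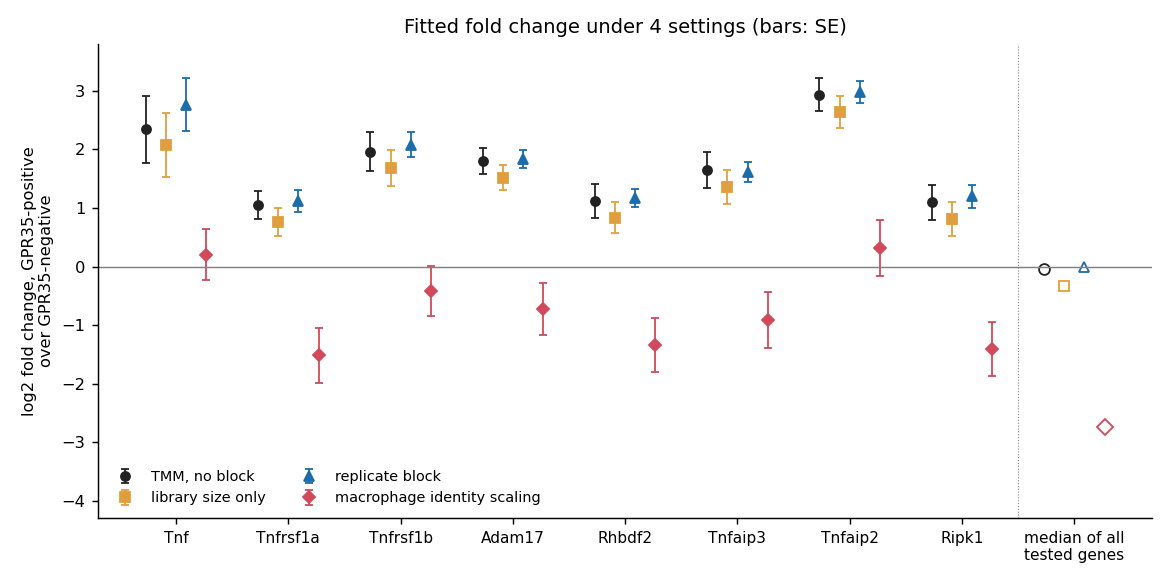
Fitted log2 fold change (GPR35-positive over GPR35-negative, with SE) of the 8 genes under TMM scaling, library size only, the replicate block and scaling to macrophage genes, with the median of all tested genes at the right. Under the first 3 settings the 8 genes lie between 0.76 and 2.99; scaled to macrophage genes they lie between -1.52 and 0.31, while the median of all genes lies at -2.74.

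Against the median of all tested genes under macrophage gene scaling, Tnf lay 2.94 log2 units higher, Tnfrsf1b 2.32, Adam17 2.02 and Tnfaip3 1.82. Rhbdf2 (1.40) and Ripk1 (1.33) lay nearer to that median, next to Tnfrsf1a. The distances under TMM were much the same, at 2.39 (Tnf), 2.01 (Tnfrsf1b), 1.85 (Adam17), 1.70 (Tnfaip3), 1.16 (Rhbdf2) and 1.15 (Ripk1). As the log2 of a gene's count over the macrophage genes, centred on the gene's mean, Tnf was at 0.17, 0.40, -0.00 and -0.03 in GPR35-positive libraries 1 to 4, against 0.05, 0.53, -0.40 and -0.73 in GPR35-negative libraries. The groups overlapped. Tnfrsf1a on this scale was at -0.66, -0.76, -0.54 and -0.78 in GPR35-positive libraries, against 0.07, 0.13, 1.66 and 0.87 in GPR35-negative libraries, without overlap and with GPR35-negative library 3 highest. TNFR1 is carried by most cell types, and the cells other than macrophages in the GPR35-negative libraries were given above by their markers; their part in these values was not tested.

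Levels between genes are compared per length, as CPM per kb of the deposited gene length. In GPR35-positive libraries Tnf (239 ± 38.0) and Tnfaip3 (218 ± 90.9) were highest and overlapped (SD, n = 4). They were followed by Tnfrsf1b (94.1 ± 15.9), Tnfaip2 (91.5 ± 18.7), Tnfrsf1a (83.7 ± 3.78) and Adam17 (78.1 ± 11.7), each of which overlapped its neighbour. Ripk1 (35.4 ± 4.80) and Rhbdf2 (16.8 ± 3.96) were lowest and stood apart from the others and from each other. In GPR35-negative libraries Tnfaip3 (69.7 ± 18.6) came first, followed by Tnf (47.1 ± 38.9), Tnfrsf1a (40.4 ± 15.1), Tnfrsf1b (24.1 ± 12.5), Adam17 (22.4 ± 7.21), Ripk1 (16.5 ± 7.97), Tnfaip2 (11.9 ± 4.34) and Rhbdf2 (7.77 ± 3.01). Every neighbour in that order overlapped the next. Tnfrsf1b ranked above Tnfrsf1a in GPR35-positive and below it in GPR35-negative libraries, and the 2 receptors overlapped in each group.

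**Figure D4:**
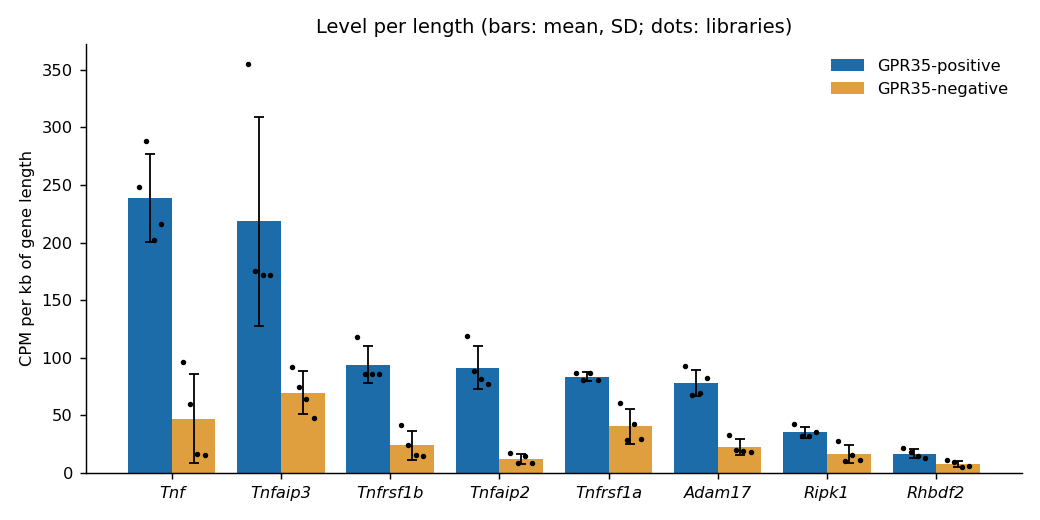
Level of the 8 genes per length (CPM per kb) in GPR35-positive (left bars) and GPR35-negative (right bars) libraries, with bars for the mean, error bars for the SD and dots for the 4 libraries. Tnf and Tnfaip3 exceed 200 CPM per kb in GPR35-positive libraries on average, while the other 6 genes lie below 100.

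Genes that control the Tnf message were 4 higher, 0 lower and 5 not past the threshold in GPR35-positive cells, of 9 (median log2 fold change 0.43). All tested genes were higher in 18.5% and lower in 19.5% of cases. Zfp36, which encodes tristetraprolin, the protein that destabilises Tnf mRNA, was at 3576 ± 531 CPM in GPR35-positive against 1409 ± 554 CPM in GPR35-negative libraries (SD, n = 4; log2 fold change 1.34 ± 0.27, edgeR adjusted p = 4.94e-03). Its relative Zfp36l2 was higher (1.59 ± 0.20, edgeR adjusted p = 5.35e-04). So were the p38 kinase gene Mapk14 (1.72 ± 0.32, edgeR adjusted p = 3.74e-03) and Mapkapk2, which encodes the kinase that inactivates tristetraprolin (1.29 ± 0.23, edgeR adjusted p = 2.77e-03).

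Of 20 genes of the TNF receptor complex, its ubiquitin ligases and the kinases they activate, 7 were higher, 0 lower and 13 not past the threshold (median log2 fold change 0.23). For this list and the next, the shares over all tested genes were 18.5% higher and 19.5% lower. Map3k14, the kinase NIK of the non-canonical NF-kB pathway, was at 54.3 ± 7.45 CPM in GPR35-positive against 17.8 ± 3.46 CPM in GPR35-negative libraries (SD, n = 4; log2 fold change 1.61 ± 0.18, edgeR adjusted p = 3.21e-04). The adaptor Traf5 (1.21 ± 0.17), the IKK-beta gene Ikbkb (1.48 ± 0.26) and the ubiquitin ligase Birc3 (1.10 ± 0.24) were also higher (edgeR adjusted p = 1.00e-03, 2.95e-03 and 7.30e-03). Partners of A20 were 4 higher of 6, with 2 not past the threshold (median 0.63). Tnip3 had the largest fold change among them, at 43.4 ± 8.98 CPM in GPR35-positive against 5.54 ± 1.55 CPM in GPR35-negative libraries (SD, n = 4; 2.97 ± 0.26, edgeR adjusted p = 1.24e-04), and the related A20-binding genes Tnip1 (0.65 ± 0.13) and Tnip2 (0.60 ± 0.18) and the ligase Itch (0.93 ± 0.24) were higher by less (edgeR adjusted p = 5.58e-03, 0.0292 and 0.0153). With library size as the only scaling, 4 of the 20 receptor complex genes and 2 of the 6 A20 partners were higher, and 12.0% of all tested genes were higher and 29.5% lower.

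Genes of TNF-driven cell death were 3 higher of 8, with 5 not past the threshold (median log2 fold change 0.49). Beside this, 18.5% of all tested genes were higher and 19.5% lower. Casp8, the initiator caspase, was at 157 ± 5.12 CPM in GPR35-positive against 85.6 ± 15.1 CPM in GPR35-negative libraries (SD, n = 4; log2 fold change 0.88 ± 0.14, edgeR adjusted p = 1.89e-03). The necroptosis kinase Ripk3 (1.37 ± 0.27, edgeR adjusted p = 4.34e-03) and the caspase-8 inhibitor Cflar (0.90 ± 0.20, edgeR adjusted p = 7.32e-03) were higher. Xiap, an inhibitor of caspases, was at 15.8 ± 3.35 CPM in GPR35-positive against 10.8 ± 1.35 CPM in GPR35-negative libraries and did not pass (SD, n = 4; 0.55 ± 0.21, edgeR adjusted p = 0.0688).

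Of 23 tested NF-kB target genes that TNF is known to induce, 12 were higher, 1 lower and 10 not past the threshold (median log2 fold change 1.07). By share this was 52.2% higher and 4.35% lower, against 18.5% and 19.5% of all tested genes. The inhibitor Nfkbie was at 202 ± 48.6 CPM in GPR35-positive against 66.0 ± 7.72 CPM in GPR35-negative libraries (SD, n = 4; log2 fold change 1.61 ± 0.19, edgeR adjusted p = 4.05e-04). The adhesion molecule Icam1 (1.40 ± 0.20), the NF-kB subunit Rel (2.23 ± 0.36) and the survival gene Bcl2a1d (2.96 ± 0.35), which has near-identical copies that counting can split, were higher (edgeR adjusted p = 1.08e-03, 2.01e-03 and 4.77e-04). Tnfaip6, named after its values were seen as the 1 gene that was lower, was at 4.57 ± 1.38 CPM in GPR35-positive against 14.9 ± 3.72 CPM in GPR35-negative libraries (SD, n = 4; -1.71 ± 0.31, edgeR adjusted p = 3.11e-03). With the macrophage genes as the scale, 0 genes of the pathway lists passed as higher. As lower passed 6 of the 7 shedding genes, 7 of the 9 message control genes, 19 of the 20 receptor complex genes, 5 of the 6 A20 partners, 8 of the 8 death genes and 17 of the 23 targets, where 87.5% of all tested genes did.

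**Figure D5:**
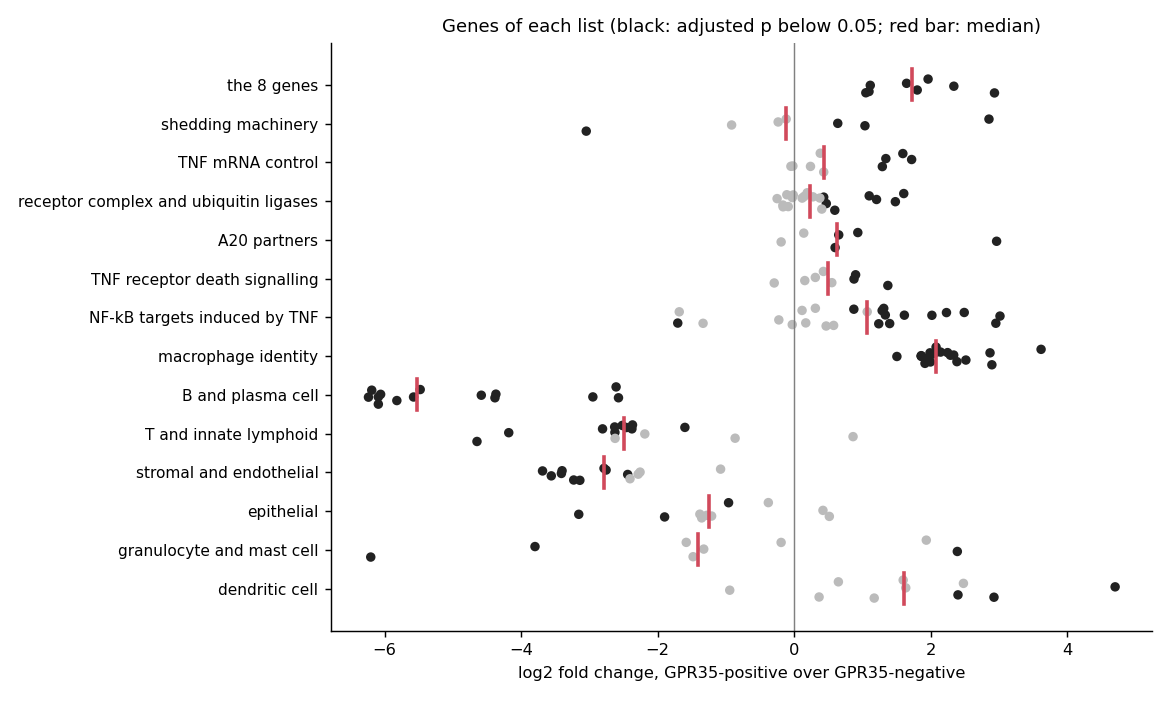
Log2 fold change (GPR35-positive over GPR35-negative) of every tested gene of each list, black where the edgeR adjusted p was below 0.05, with a red bar at the list's median. The 8 genes lie to the right with the macrophage genes, the TNF pathway lists have medians between -0.12 and 1.07, and the B and plasma cell genes lie at a median of -5.53.

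Markers of other cells were counted against the shares over all tested genes, 18.5% higher and 19.5% lower. The granulocyte and mast cell genes lay near those shares, at 12.5% higher and 25% lower. In GPR35-positive cells 14 of 14 B and plasma cell genes were lower, including Sdc1 (25.8 ± 5.96 CPM in GPR35-positive against 1152 ± 281 CPM in GPR35-negative libraries), Txndc5, Xbp1 and Tnfrsf17, which encodes the BCMA receptor. T and innate lymphoid genes were lower for 10 of 14, including Cd28 (10.1 ± 1.18 CPM in GPR35-positive against 254 ± 39.7 CPM in GPR35-negative libraries), Cd2, Nkg7 and Lck, and with the replicate block 5 were lower and 1 higher, where 39.4% of all tested genes passed (2755 higher and 2830 lower); their sum was 0.00513% to 0.00624% of counts in GPR35-positive and 0.0385% to 0.0653% in GPR35-negative libraries. Among them Cd247 was at 0 in a GPR35-positive and Cd8a in a GPR35-negative library. Epithelial genes were lower for 3 of 10 (Epcam, Lypd8 and Car1; Krt8 did not pass), and with the replicate block 5 were; their sum was 0.00880% to 0.0164% of counts in GPR35-positive and 0.0248% to 0.0811% in GPR35-negative libraries. Of 8 tested granulocyte and mast cell genes, 1 was higher, Csf3r, and 2 lower, Prg2 and Cpa3, while S100a8 did not pass, and with the replicate block 1 was lower; their sum was 0.0119% to 0.0159% in GPR35-positive and 0.0137% to 0.0250% in GPR35-negative libraries. Among them Mcpt4 was at 0 in libraries of each group, Ly6g, Cxcr2 and Cpa3 in some GPR35-positive and S100a9 and Siglecf in some GPR35-negative libraries. Dendritic cell genes were higher for 3 of 10 (Dpp4, Cd209a and Batf3; Clec9a did not pass), at 0.0178% to 0.0534% of counts in GPR35-positive and 0.0105% to 0.0332% in GPR35-negative libraries, with Zbtb46 and Clec9a at 0 in some GPR35-negative libraries. Axl, Cybb, Mpeg1 and Spi1 led the macrophage genes by p-value. The part of these cells in the values of the 8 genes was not tested beyond the scaling to macrophage genes.

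Profiles most like those of the ligand and the receptors over the 8 libraries were sought among 9399 other genes, by the root mean square difference of centred log2 CPM. Nearest to Tnf were Hcar2, the niacin and butyrate receptor (0.17), March1, a ubiquitin ligase that acts on MHC class II (0.21), and E230013L22Rik (0.22), against a median of 1.57 over all genes compared. Hcar2 stood at 121 CPM on average in GPR35-positive and 22.7 CPM in GPR35-negative libraries. Among the nearest to Tnfrsf1b were Mfsd12 (0.0955) and the sorting nexin Snx10 (0.12), against a median of 1.10. Nearest to Tnfrsf1a were the kinase gene Rps6ka4 (0.0753), Phactr2 (0.0758) and Paxbp1 (0.12), against a median of 0.68.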

How the data were processed

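Raw read counts per gene were deposited by the authors, with a gene length column in bases, as other information per the file headers. The labels' protocols name SMART-Seq v4 for cDNA amplification and Nextera XT for libraries, a method that marks no strand and uses no molecular identifiers. The mm10 build, STAR 2.5.2a and R 3.4.2 are listed per the submitters' processing notes; a counting tool is not given in the sources used. Of 14980 listed genes, 9 without a symbol (0.0179% of counts) were left out.

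Counts were tested with edgeR 4.0.16 (R 4.3.3) on all 8 libraries: filterByExpr (minimum count 10, minimum total 15), TMM, a robust quasi-likelihood F-test without a block, and Benjamini-Hochberg adjustment over 14184 genes at 0.05. Each SE is the absolute log2 fold change divided by the root of its F statistic. Log2 CPM used a prior count of 2 and ratios a pseudocount of 0.5. The fit was tested on simulated data. Among 13984 genes, it recovered 23.2% of 69 changes at an absolute log2 fold change of 1, 61% of 59 at 2 and 73.2% of 71 at 3. Of its 112 calls, 7.14% were false. Far fewer genes were changed there than the 38.0% called in the data, and the simulated libraries were not paired by animal. These shares therefore do not carry over to the data. Genes not past the threshold may still differ. Alternatives used DESeq2 1.42.0, limma 3.58.1, other scalings and filters, and left-out animals or libraries. Scaling to macrophage genes set each library's size to the geometric mean of 20 genes. Coordinates are RefSeq's (GRCm38.p6), matched by Entrez ID for 8 of 8.

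The 8 genes, the lists and the alternatives were chosen with earlier results of these data known; 1 alternative was added after seeing the values. Named genes were the 8, up to 4 of each list with the smallest p, the 3 nearest profiles of Tnf and the receptors, and Gpr35; a few items are not reported here. The animal label pairs the libraries: deviations of partners correlated over genes at 0.206, 0.206, 0.431 and 0.0637 in replicates 1 to 4, against at most 0.104, 0.0911, 0.172 and 0.237 with another animal's library, so replicate 4 did not correlate best with its own partner. Replicates are separate animals, and no pair of them agreed within sampling noise (chi-square over degrees of freedom at least 25.5).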

Additional observations from a re-analysis of the deposited data

Results flagged for a closer look

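In groups of 4, a library was marked where its gap to the nearest other library took up most of the group's range (Dixon's test at the 95% level), which chance does in about 1 of 20 groups; 28 groups were looked at and 3 were marked, against 1.4 by chance. GPR35-positive replicate 1 stood apart for Tnfrsf1b at 9.18 log2 CPM, against 8.72 to 8.73 in the other 3 GPR35-positive libraries. The same library stood apart for Tnfaip3 at 10.67 log2 CPM, against 9.62 to 9.66 in the others. GPR35-negative replicate 1 stood apart for Adam17 at 7.24 log2 CPM, against 6.37 to 6.48 in the other GPR35-negative libraries. The 8 genes together took 0.346% of counts in GPR35-positive replicate 1, against 0.236% to 0.242% in the other GPR35-positive libraries. Without that library 7 of the 8 genes passed the threshold, and Ripk1 did not (log2 fold change 1.01; edgeR adjusted p = 0.0520). In that fit 1989 of 14464 tested genes were higher and 2103 lower.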

How the results depend on the processing

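The 8 genes kept their direction and their calls with RLE or upper-quartile scaling, no filter, 5 CPM in 4 libraries, no robust estimation, thinning to the smallest total, DESeq2 with or without the block, and limma voom. In these settings 2154 to 3282 of all tested genes were higher and 2564 to 3619 lower. The replicate block kept all 8 as well, with log2 fold changes of 1.12 (Tnfrsf1a) to 2.99 (Tnfaip2). There 2755 of all tested genes were higher and 2830 lower. The edgeR adjusted p with the block ranged from 3.64e-04 (Tnfaip2) to 5.73e-03 (Tnfrsf1a). With library size only, 7 passed and Ripk1 (0.81) did not, and over all genes 1695 were higher and 4191 lower, against 2617 and 2769 in the values as reported.

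Scaling to the macrophage genes left 0 of the 8 higher and 3 lower, with or without the replicate block. Without the block Tnf (0.20) and Tnfaip2 (0.31) lost their calls, and Tnfrsf1a (-1.52), Tnfrsf1b (-0.42), Adam17 (-0.72), Rhbdf2 (-1.34), Tnfaip3 (-0.92) and Ripk1 (-1.41) changed sign; 61 of all genes were higher and 12418 lower. With the block the values were 0.27 (Tnf), 0.51 (Tnfaip2), -1.36 (Tnfrsf1a), -0.41 (Tnfrsf1b), -0.65 (Adam17), -1.33 (Rhbdf2), -0.91 (Tnfaip3) and -1.28 (Ripk1), with 87 higher and 11713 lower. By construction this scaling sets the macrophage genes near 0; the cause of the difference was not tested.

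Leaving out an animal or a library gave 5 to 8 of the 8 as higher (5 without replicate 2 or 4, 6 without replicate 3) and 0 lower, with 1572 to 2931 of all genes higher and 1680 to 3035 lower. These fits, like the main one, had no replicate block and so did not use the pairing by animal. The log2 fold changes ranged from 2.05 to 2.97 (Tnf), 0.93 to 1.32 (Tnfrsf1a), 1.79 to 2.37 (Tnfrsf1b), 1.69 to 2.06 (Adam17), 0.95 to 1.36 (Rhbdf2), 1.32 to 1.82 (Tnfaip3), 2.79 to 3.15 (Tnfaip2) and 0.96 to 1.48 (Ripk1). With replicates 1 and 2 alone, a setting added after the data were seen, 2 of the 8 (Tnf and Tnfaip2) passed, and 489 genes were higher and 756 lower. There Tnfrsf1a (0.90), Tnfrsf1b (1.63), Adam17 (1.60), Rhbdf2 (0.97), Tnfaip3 (1.67) and Ripk1 (0.92) did not pass. The ratios kept their direction in every setting tried, but without replicate 1 the difference in Tnfaip3/Ripk1 was 0.0965, against 0.41 with all animals, and that in Tnf/Tnfaip3 was 1.73, against 1.15. Without replicate 2 Tnfaip3/Ripk1 was 0.66, the highest of its values with an animal left out, and sign flips within animals cannot go below an exact p of 0.125.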
